A study of Mus musculus with 6 samples.

Results

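The genes of glucose use were examined in alveolar macrophages (AMs), the resident phagocytes of the airspace, from mice with and without CD44, a cell surface receptor for hyaluronan. The set held 33 genes chosen by their function: the enzymes of glycolysis, the lactate dehydrogenases, the enzymes of the pentose phosphate pathway (PPP), and genes of oxygen sensing with a few of their targets. All 33 were among the 24341 genes of the deposited table, and 30 of them passed a filter for a mean of at least 0.5 FPKM (a fragment count scaled to transcript length and library size), as did 10800 genes in all. RNA sequencing was performed on unstimulated AMs taken by bronchoalveolar lavage from female C57BL/6 mice of 6 to 10 weeks, with 3 CD44+/+ samples and 3 CD44-/- samples. Each sample was a pool of lavage cells from more than 1 mouse. The CD44-/- mice lacked the gene in every cell and not in AMs alone, and the lavage cells were not sorted.

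Glycolysis splits glucose into pyruvate and yields ATP and NADH without oxygen, and lactate dehydrogenase regenerates the NAD+ that it uses. The PPP branches off at glucose 6-phosphate: its oxidative arm makes NADPH, which serves lipid synthesis and the defence against oxidants, and its non-oxidative arm interconverts sugars and returns them to glycolysis. Many glycolytic genes are targets of the hypoxia-inducible factors (HIFs), whose alpha subunits are hydroxylated by the Egln enzymes and degraded when oxygen is present. AMs live in an oxygen-rich space and are known for handling surfactant lipid.

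Expression of Cd44 checked the labels. It was 540, 535 and 527 FPKM in the 3 CD44+/+ samples and 54.7, 54.5 and 51.4 FPKM in the 3 CD44-/- samples, so residual Cd44 reads were present in every CD44-/- sample while the groups were far apart. All 13 AM marker genes found, Siglecf, Itgax, Marco and Pparg among them, were above 1 FPKM in every sample. Of these, Krt79, Mrc1 and Lpl were lower and Itgax higher in every CD44-/- sample, with Krt79 at 265, 269 and 314 against 224, 203 and 225 FPKM (adjusted p 0.185 in limma). Genes of neutrophils summed to 50.5 to 155 FPKM with Camp, Mpo and Elane at 0, and Ltf among them was at 28.7, 87.3 and 37.2 against 23.1, 33.8 and 15.2 FPKM (adjusted p 0.619), while Cxcr2 was at 3.97, 2.62 and 3.71 against 4.56, 3.88 and 4.30 FPKM (adjusted p 0.708). Genes of monocytes and interstitial macrophages summed to 48.0 to 62.4 FPKM, and Ace among them was higher in every CD44-/- sample (adjusted p 0.470). Genes of lymphocytes summed to 0.791 to 2.05 FPKM. Genes of airway secretory cells summed to 628 to 1350 FPKM and those of alveolar type 2 cells to 90.7 to 168 FPKM, and these sums overlapped between the genotypes. Of the latter, Sftpb was higher in every CD44-/- sample, at 2.13, 1.26 and 1.48 against 3.80, 2.32 and 6.53 FPKM (adjusted p 0.369 in limma), and Sftpc was at 15.5, 6.83 and 9.72 against 22.8, 12.4 and 74.2 FPKM (adjusted p 0.591). Genes of erythroid cells ranged from 15.1 to 338 FPKM and were highest in CD44-/- replicate 2, which also had the lowest relative depth, 0.813 of that of CD44+/+ replicate 1. Genes of cycling cells summed to 106 to 110 FPKM in CD44+/+ samples and 114 to 144 FPKM in CD44-/- samples (exact permutation test, two-sided p = 0.1, the smallest that 3 against 3 allows), and Birc5, Mki67 and Top2a were higher in every CD44-/- sample, with adjusted p of 0.114, 0.385 and 0.459 in limma. The part that these other cells had in the values below was not tested, and in bulk RNA fewer cells of a type and less RNA per cell cannot be told apart.

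None of the 30 genes differed between the genotypes at an adjusted p under 0.05 (limma on log2(FPKM + 0.1), Benjamini-Hochberg over 10800 genes), where 12 genes (0.111% of those tested) did in all. Only Gpi1 had an unadjusted p under 0.05, against 831 genes or 7.69% of all those tested, and 2.94% counting only lower values as in Gpi1. Adjusted p ranged from 0.476 to 0.998. The estimates were close to 0 and precise: log2 fold changes (CD44-/- over CD44+/+) ran from -0.26 for Pfkm to 0.19 for Epas1, with a median standard error of 0.07. In 29 of 30 genes the 95% interval of the difference stayed within 1.5-fold either way, as it did in 86.2% of all genes tested. The exception was Pfkm, a gene near the filter with an interval from -1.11 to 0.59.

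The small differences lay mostly on one side. The estimate was below 0 in 24 of the 30 genes and above it in 6, while it was below 0 in 44.2% of all genes tested. The median log2 fold change was -0.04 for the 30 genes and 0.01 for all genes. In 4 genes, Hk1, Gpi1, Aldoa and Taldo1, every CD44-/- value was under every CD44+/+ value, and in no gene was it the other way round. Such separation, downwards, was seen in 4.88% of all genes, and in either direction in 11.6%. The summed expression of the 33 genes was 4026, 3987 and 4119 FPKM in CD44+/+ AMs and 3890, 3764 and 3969 FPKM in CD44-/- AMs, which did not overlap. Without Aldoa the sums were 3095, 3077 and 3173 FPKM against 3019, 2946 and 3078 FPKM. These overlapped narrowly, as CD44+/+ replicate 2 (3077 FPKM) lay just under CD44-/- replicate 3 (3078 FPKM). The FPKM of all genes summed to 494627 in the former sample and 504182 in the latter. Within each same-numbered pair the CD44-/- sum without Aldoa was the lower. As a share of the FPKM of all genes, the 33 genes with Aldoa made up 0.808%, 0.806% and 0.837% against 0.776%, 0.771% and 0.787%. A few samples weighed on the count. Of the 30 genes, 13 had their lowest value in CD44-/- replicate 2, 11 their highest value in CD44+/+ replicate 3 and 10 their highest value in CD44+/+ replicate 1. Without CD44-/- replicate 2 20 of 30 estimates were below 0, beside 44.5% of all genes. With quantile normalization 21 of 30 estimates were below 0, beside 51.9% of all genes.

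**Figure D1:**
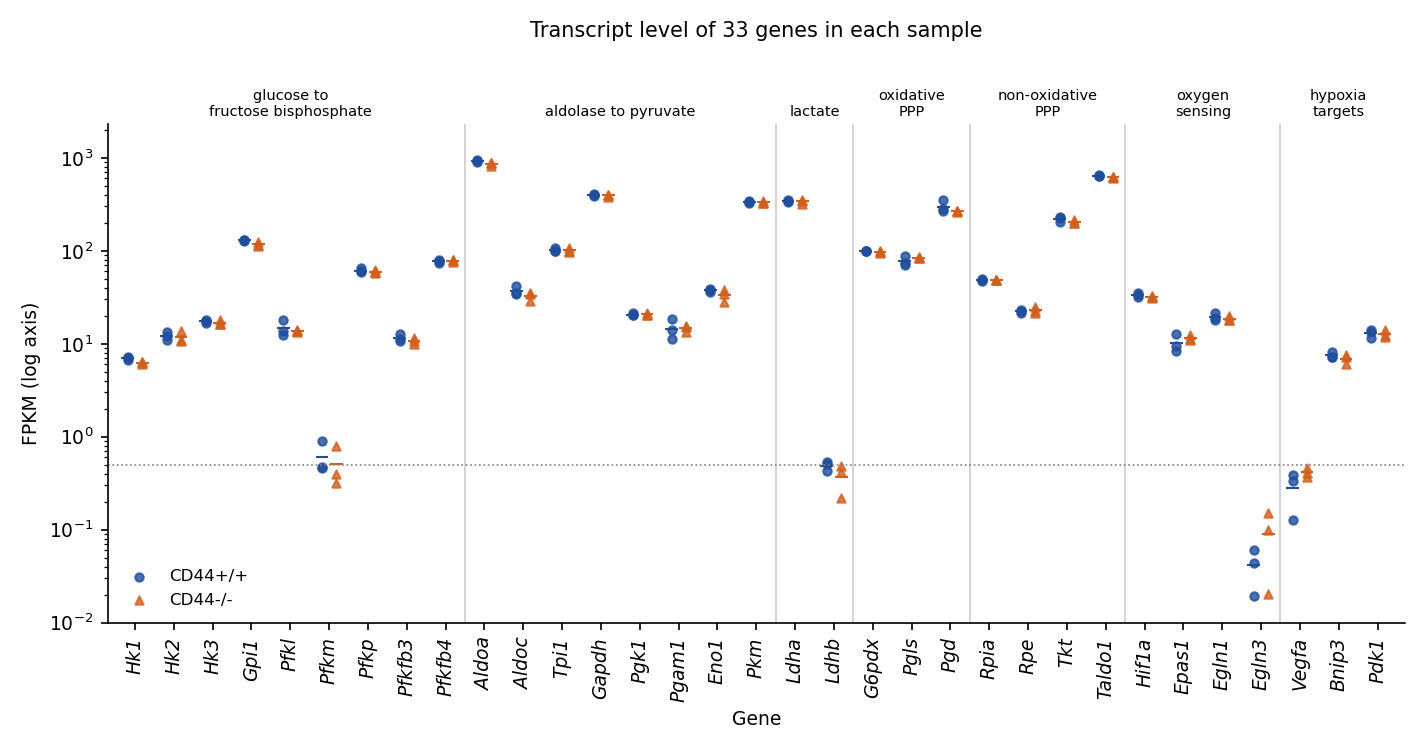
FPKM (log axis) of the 33 genes in each sample, in the order of the pathway, with circles for the 3 CD44+/+ samples, triangles for the 3 CD44-/- samples and short lines at the group means; the dotted line is the filter of 0.5 FPKM. Levels span from under 0.1 FPKM (Egln3) to 946 FPKM (Aldoa), and the genotypes overlap or lie close together at the 30 genes tested.

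**Figure D2:**
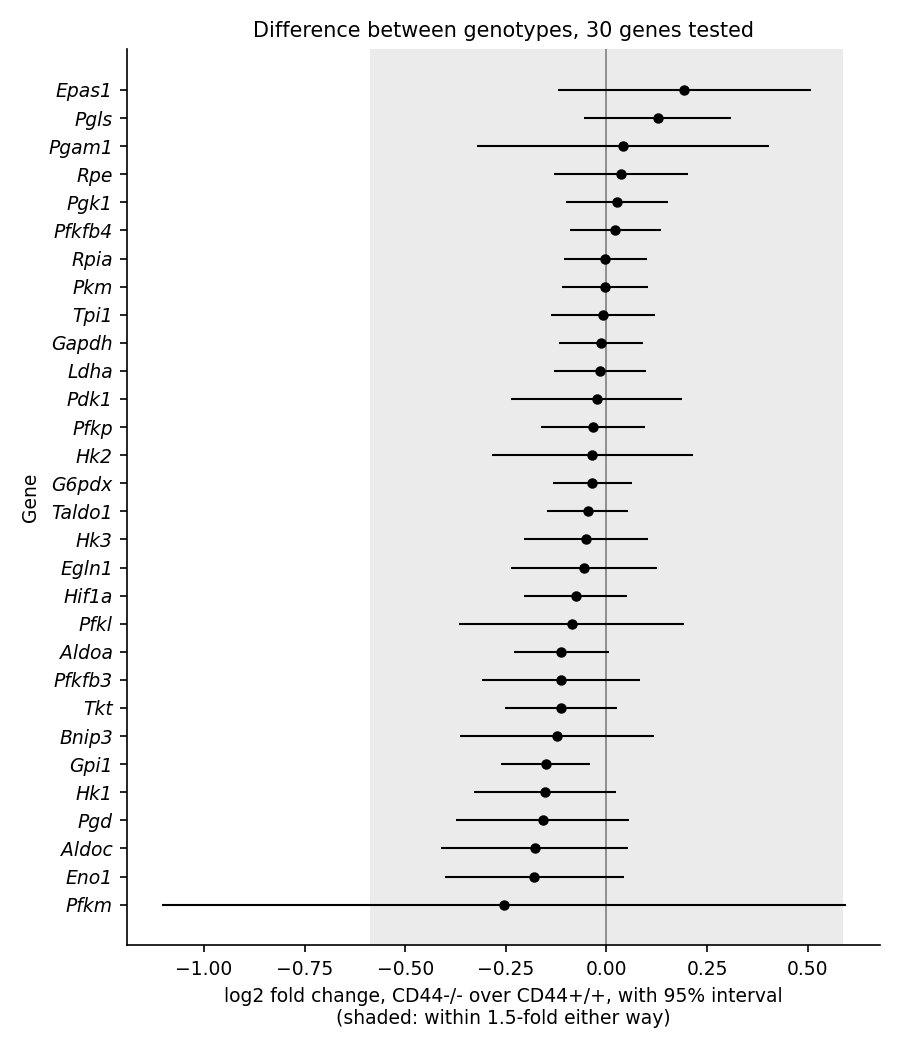
Log2 fold change of CD44-/- over CD44+/+ AMs with its 95% limma interval for the 30 genes tested, sorted by estimate; the shaded band marks 1.5-fold either way. The interval of Gpi1 alone leaves out 0, and that of Pfkm alone leaves the band.

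Hypoxia response elements are built around short letter strings, so the promoters were searched for ACGTG and GCGTG on both strands (an element reading CACGTG counts once on each strand). RefSeq (build GRCm38.p6) gave 47 promoters for 32 of the 33 genes, each running from 250 bases before the start to 50 after it. At least 1 match was present in 37 of these 47 promoters (78.7%), and in 43.8% of all 32851 promoters; G and C made up a median of 60.7% of the letters in the former and 52.7% in the latter. A match is a description of the letters and says nothing of binding in AMs. The bases upstream of the start are shown for 3 genes known as hypoxia targets, Ldha, Pgk1 and Bnip3, and for Gpi1, which had the lowest p of the set. Capitals mark the matches, and each sequence is given 5′ to 3′ on the gene's strand: Ldha at chr7:46845554-46845803 (plus strand), Pgk1 at chrX:106186850-106187099 (plus), Bnip3 at chr7:138909507-138909756 (minus) and Gpi1 at chr7:34230337-34230586 (minus).
Ldha: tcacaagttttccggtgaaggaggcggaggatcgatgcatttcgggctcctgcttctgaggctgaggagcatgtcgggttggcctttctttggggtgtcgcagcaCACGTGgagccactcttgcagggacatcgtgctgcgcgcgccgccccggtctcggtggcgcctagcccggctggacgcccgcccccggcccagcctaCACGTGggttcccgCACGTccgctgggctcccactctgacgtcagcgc
Pgk1: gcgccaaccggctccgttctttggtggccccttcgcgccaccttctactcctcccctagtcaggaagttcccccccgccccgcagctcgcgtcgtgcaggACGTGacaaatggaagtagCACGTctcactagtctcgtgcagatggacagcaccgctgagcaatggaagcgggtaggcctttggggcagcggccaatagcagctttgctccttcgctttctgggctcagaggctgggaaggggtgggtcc
Bnip3: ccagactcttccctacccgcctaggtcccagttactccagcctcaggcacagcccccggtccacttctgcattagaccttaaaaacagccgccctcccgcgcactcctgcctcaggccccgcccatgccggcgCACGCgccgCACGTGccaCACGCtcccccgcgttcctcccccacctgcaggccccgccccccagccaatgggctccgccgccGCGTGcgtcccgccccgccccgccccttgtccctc
Gpi1: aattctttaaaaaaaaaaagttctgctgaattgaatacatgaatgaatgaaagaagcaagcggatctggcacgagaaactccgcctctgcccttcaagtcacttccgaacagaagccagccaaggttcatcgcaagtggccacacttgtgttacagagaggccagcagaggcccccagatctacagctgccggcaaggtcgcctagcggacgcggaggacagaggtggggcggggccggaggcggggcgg
Upstream of the start shown there were 5 matches in Ldha, for which RefSeq gives another promoter with 1 match upstream of its start, 2 in Pgk1, 5 in Bnip3 and 0 in Gpi1.

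The upper part of glycolysis, from glucose to fructose 1,6-bisphosphate, was led by Gpi1, glucose-6-phosphate isomerase, on chromosome 7. Gpi1 was measured at 132, 132 and 129 FPKM in CD44+/+ AMs and at 114, 116 and 124 FPKM in CD44-/- AMs. All 3 CD44-/- values were lower, with group means of 131 ± 1.73 and 118 ± 5.29 FPKM (SD, n = 3 each). The log2 fold change was -0.15 ± 0.05 (SE), with an adjusted p of 0.476 in limma and an unadjusted p of 0.0137. In the alternative fits the estimate lay between -0.19 and -0.13, and the unadjusted p stayed under 0.05 except when CD44-/- replicate 1 was left out (0.0503). Of the windows of 42 bases, the read length, in Gpi1 transcripts, 28.9% also occur in transcripts of other annotated genes, so a part of its reads could have been assigned elsewhere.

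Hexokinases trap glucose in the cell by phosphorylating it. Hk1, the widely expressed form, was measured at 7.01, 6.64 and 7.28 FPKM in CD44+/+ AMs and at 6.37, 5.99 and 6.43 FPKM in CD44-/- AMs. The groups did not overlap, and the log2 fold change of -0.15 ± 0.08 (SE) had an adjusted p of 0.721 in limma. Hk2, the inducible form, was measured at 12, 11 and 13.4 FPKM against 13.7, 10.8 and 11.1 FPKM. Hk3, the form found in myeloid cells, was measured at 17.8, 18.1 and 16.7 FPKM against 18.1, 16.5 and 16.2 FPKM. Their ranges overlapped. Hk3 supplied the largest share of hexokinase transcript in every sample, 47.9 ± 3.06% in CD44+/+ and 48.3 ± 1.06% in CD44-/- AMs (SD, n = 3), followed by Hk2 with 33.1 ± 2.60% and 33.8 ± 1.86%, and Hk1 with 19.0 ± 0.47% and 17.9 ± 1.19%.

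Phosphofructokinase commits the sugar to glycolysis. Pfkp, the platelet form, made up 79.9 ± 3.95% of its transcript in CD44+/+ AMs and 80.7 ± 0.90% in CD44-/- AMs, at 64.6, 60.3 and 58.8 FPKM against 58.2, 58.6 and 62.6 FPKM. Pfkl, the liver form, was measured at 12.5, 13.8 and 18.1 FPKM in CD44+/+ AMs and at 14, 13.5 and 13.8 FPKM in CD44-/- AMs, so that the CD44+/+ samples spanned the CD44-/- samples. Pfkm, the muscle form, was at 0.460, 0.467 and 0.904 FPKM against 0.796, 0.321 and 0.396 FPKM. Pfkfb3 and Pfkfb4 set the level of fructose 2,6-bisphosphate, the activator of phosphofructokinase. Pfkfb4 was the more abundant of the pair by 6.11 to 7.96 times, at 78.1, 78.8 and 74.3 FPKM in CD44+/+ AMs and 75.4, 79.6 and 79.7 FPKM in CD44-/- AMs. Pfkfb3 was at 12.8, 11.4 and 10.8 FPKM against 10.8, 10.0 and 11.5 FPKM. The share of Pfkfb3 in the transcript of Pfkfb3 and Pfkfb4 was 13.1 ± 0.82% in CD44+/+ and 12.1 ± 0.80% in CD44-/- AMs, with an exact two-sided permutation p of 0.1 and an adjusted p of 0.66 over the 11 isozyme shares compared. None of these 11 shares had an adjusted p below 0.66.

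**Figure D3:**
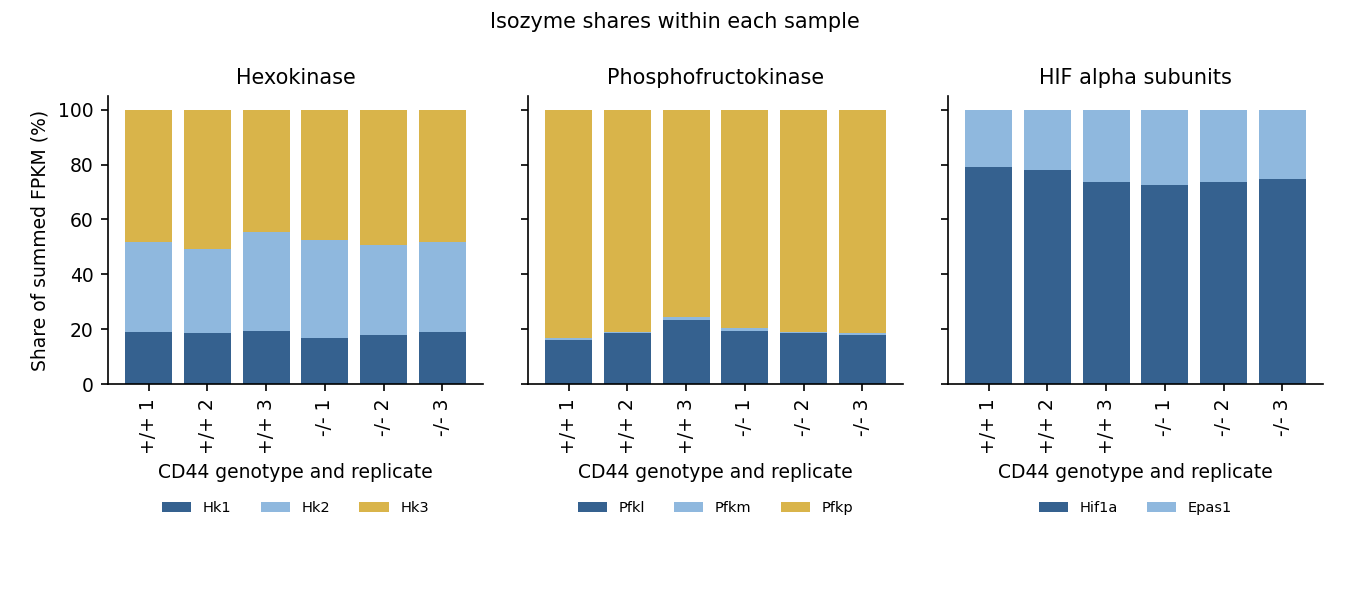
Share of the summed FPKM (percent) held by each isozyme in each of the 6 samples, for the hexokinases, the phosphofructokinases and the HIF alpha subunits. Hk3 and Pfkp are the largest parts in every sample, and Hif1a holds 72.5% to 79.3% of the HIF alpha transcript.

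From aldolase to pyruvate, the most abundant gene of the whole set was Aldoa, which cleaves fructose 1,6-bisphosphate. Aldoa was measured at 932, 909 and 946 FPKM in CD44+/+ AMs and at 871, 818 and 891 FPKM in CD44-/- AMs. The CD44-/- samples were all lower, by a log2 fold change of -0.11 ± 0.05 (SE) with an adjusted p of 0.679 in limma. Its paralog Aldoc was measured at 34.9, 34 and 42 FPKM against 35.1, 28.6 and 34.1 FPKM, so that Aldoa held 95.8% to 96.6% of the transcript of the pair in each sample. Eno1, enolase, was reported on a row it shares with Eno1b. It was at 39.2, 35.9 and 37.7 FPKM against 37.7, 28.4 and 34.1 FPKM, and the log2 fold change of -0.18 ± 0.10 (SE) had an adjusted p of 0.765 in limma. The groups overlapped, while within each same-numbered pair the CD44-/- value was the lower, with an adjusted p of 0.451 in the fit with the replicate block. With a sample left out the log2 fold change of Eno1 ran from -0.27 (without CD44-/- replicate 1) to -0.07 (without CD44-/- replicate 2).

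The other enzymes of this stretch were level. Gapdh, which makes the NADH of glycolysis, was at 405, 401 and 393 FPKM in CD44+/+ AMs and at 402, 383 and 403 FPKM in CD44-/- AMs. Pkm, pyruvate kinase, was at 333, 331 and 344 FPKM against 329, 329 and 347 FPKM. Their 95% intervals ran from -0.12 to 0.09 for Gapdh and from -0.11 to 0.10 for Pkm on the log2 scale. Under quantile normalization Gapdh, Pkm and Ldha turned to estimates just above 0, so their sign depended on the scaling. Tpi1, triose phosphate isomerase, had values of 97.0 to 107 FPKM and Pgk1, the enzyme of an ATP-yielding step, of 20.2 to 21.6 FPKM over the 6 samples. Pgam1, phosphoglycerate mutase, was the least even: 11.3, 14 and 18.5 FPKM in CD44+/+ AMs and 13.3, 15.7 and 15.3 FPKM in CD44-/- AMs. Within the CD44+/+ samples its values spread more than the difference between the genotypes.

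Several of these genes have many processed copies in the mouse genome, which bears on how their levels compare. The share of 42-base windows of the transcript found in other annotated genes was 68.1% for Pgk1, 60.1% for Gapdh, 51.2% for Eno1, 41.8% for Pgam1 and 27.8% for Pkm. It was also 63.8% for Bnip3, and 0% for Hk2, Hk3, Pfkfb4, Aldoc, Pgls, Pgd, Rpia, Tkt, Egln1 and Egln3. The order of levels is thus uncertain for the former, while the difference between genotypes compares samples that were counted alike. How reads that match several places were assigned is not given in the sources used here.

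Lactate dehydrogenase turns pyruvate into lactate. Ldha was measured at 348, 338 and 346 FPKM in CD44+/+ AMs and at 345, 322 and 353 FPKM in CD44-/- AMs, with a 95% interval of -0.13 to 0.10 on the log2 scale. Ldhb, the heart form, was at 0.504, 0.535 and 0.424 FPKM against 0.418, 0.219 and 0.481 FPKM and was under the filter. Ldha therefore made up 99.8% to 99.9% of the lactate dehydrogenase transcript in every sample.

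The PPP was abundantly expressed. G6pdx, the NADPH-making enzyme that opens the oxidative arm, was at 98.4, 99.4 and 100 FPKM in CD44+/+ AMs and at 98.4, 96.7 and 95.5 FPKM in CD44-/- AMs. Its log2 fold change of -0.04 had the narrow interval of -0.13 to 0.06. Pgd, the later NADPH-making enzyme, was 2.70 to 3.50 times as abundant as G6pdx, at 266, 279 and 350 FPKM in CD44+/+ AMs and 269, 267 and 260 FPKM in CD44-/- AMs. The value of CD44+/+ replicate 3 stood above the other 5 samples, and the groups overlapped. Pgls, which opens the lactone made by G6pdx, was one of the 6 genes with an estimate above 0. It was at 88.6, 70.9 and 73.5 FPKM in CD44+/+ AMs and 84.5, 85.4 and 83.4 FPKM in CD44-/- AMs, and its log2 fold change of 0.13 ± 0.08 (SE) had an adjusted p of 0.829 in limma. The overlap came from the high value of CD44+/+ replicate 1, and without that sample the log2 fold change was 0.23 and the adjusted p 0.138, while without CD44+/+ replicate 2 the log2 fold change was 0.06.

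In the non-oxidative arm Taldo1, transaldolase, was the most abundant gene and exceeded Tkt, transketolase, by 2.75 to 3.16 times in each sample. Taldo1 was at 651, 634 and 635 FPKM in CD44+/+ AMs and at 620, 612 and 627 FPKM in CD44-/- AMs. The groups did not overlap, yet the log2 fold change was only -0.05 ± 0.04 (SE) with an adjusted p of 0.926 in limma. Tkt was at 206, 225 and 231 FPKM against 198, 198 and 216 FPKM, with a log2 fold change of -0.11 and an adjusted p of 0.763. The pentose isomerase Rpia was nearly constant at 47.9 to 49.4 FPKM, and the epimerase Rpe was at 21.2 to 25.0 FPKM. Aldoa, Taldo1, Gapdh, Ldha, Pkm, Pgd and Tkt, 7 of the 33 genes, made up 77.8% to 78.7% of the summed expression of the set in each sample.

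Among the genes of oxygen sensing, Hif1a, the widely expressed HIF alpha subunit, was at 32.0, 33.8 and 35.4 FPKM in CD44+/+ AMs and at 32.5, 31.3 and 32.1 FPKM in CD44-/- AMs. Epas1, which encodes HIF-2 alpha, was at 8.36, 9.5 and 12.6 FPKM against 12.3, 11.2 and 10.9 FPKM. Epas1 had the highest estimate of the set, 0.19 ± 0.14 (SE), but its groups overlapped and its adjusted p was 0.857 in limma. With a sample left out the log2 fold change of Epas1 ran from 0.07 (without CD44+/+ replicate 1) to 0.36 (without CD44+/+ replicate 3, adjusted p 0.492). Hif1a held 77.0 ± 2.91% of the HIF alpha transcript in CD44+/+ and 73.6 ± 1.05% in CD44-/- AMs (SD, n = 3, exact two-sided permutation p = 0.2). Egln1, the main HIF prolyl hydroxylase, was at 21.3, 17.9 and 18.9 FPKM against 19.9, 18 and 17.9 FPKM. The hypoxia-inducible Egln3 was at 0.0608, 0.0439 and 0.0192 FPKM against 0.0205, 0.0993 and 0.150 FPKM, under the filter.

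The hypoxia targets were low or level. Vegfa, the endothelial growth factor, was at 0.126, 0.391 and 0.330 FPKM in CD44+/+ AMs and at 0.466, 0.407 and 0.369 FPKM in CD44-/- AMs, below the filter. Bnip3, a mitophagy receptor, was at 7.16, 8.20 and 7.21 FPKM against 7.54, 6.00 and 7.22 FPKM. Pdk1, which inhibits pyruvate dehydrogenase and so limits the conversion of pyruvate to acetyl-CoA, was at 14, 13.3 and 11.5 FPKM against 11.9, 13.9 and 12.3 FPKM. Adjusted p was 0.916 for Bnip3 and 0.989 for Pdk1 in limma. The log2 fold change of Bnip3, -0.12, ran from -0.19 (without CD44-/- replicate 1) to -0.02 (without CD44-/- replicate 2) with a sample left out.

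With the replicate number as a replicate block, 4 of the 30 genes had an unadjusted p under 0.05 (Gpi1, Aldoc, Eno1 and Tkt) in place of 1, all lower in CD44-/- AMs, as were 3.67% of all genes in that fit. The lowest adjusted p of the 4 was 0.400 in that fit. Among the tested genes other than Pfkm, spread in the CD44+/+ samples was largest for Pgam1 (coefficient of variation 24.9%), Epas1 (21.6%), Pfkl (19.8%) and Pgd (15.2%), and in each of these replicate 3 was the highest. The median deviation of the 30 genes from their mean over the 6 samples was lowest in CD44-/- replicate 2, at -0.07 on the log2 scale, and between -0.01 and 0.02 in the other 5 samples. In CD44+/+ replicates 1 to 3 it was 0.019, 0.008 and 0.022, and in CD44-/- replicates 1 to 3 -0.011, -0.069 and -0.003. The same median over all genes tested was 0.047, -0.018 and -0.048 in CD44+/+ replicates and 0.026, 0.008 and -0.011 in CD44-/- replicates. The set thus stood below all genes in CD44+/+ replicate 1 and in CD44-/- replicates 1 and 2. It stood above them in CD44+/+ replicates 2 and 3 and in CD44-/- replicate 3.

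**Figure D4:**
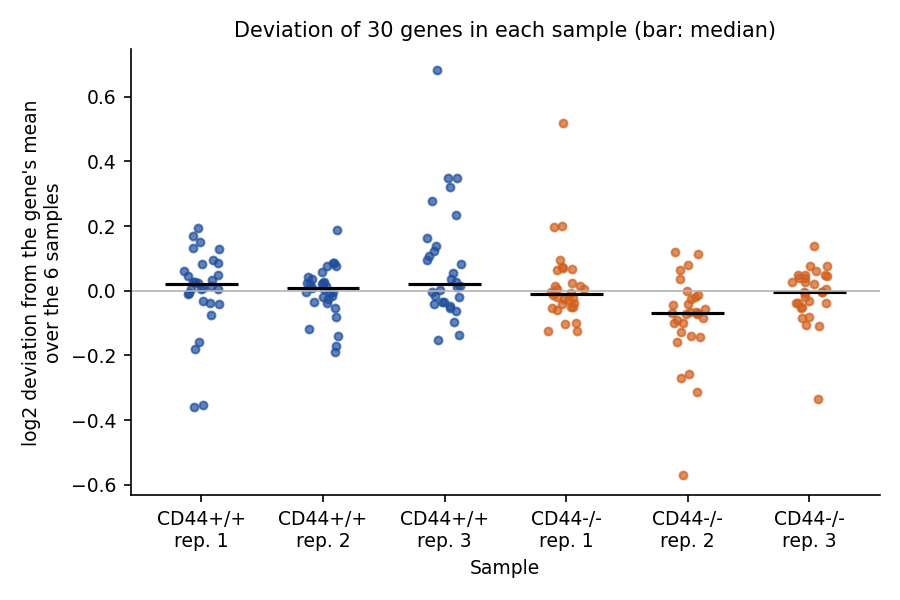
Deviation of each of the 30 genes tested from its own mean over the 6 samples (log2 scale), a point per gene and a bar at the median, by sample. The median of CD44-/- replicate 2 lies at -0.07, and the highest single point, in CD44+/+ replicate 3, is Pfkm.

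**Figure D5:**
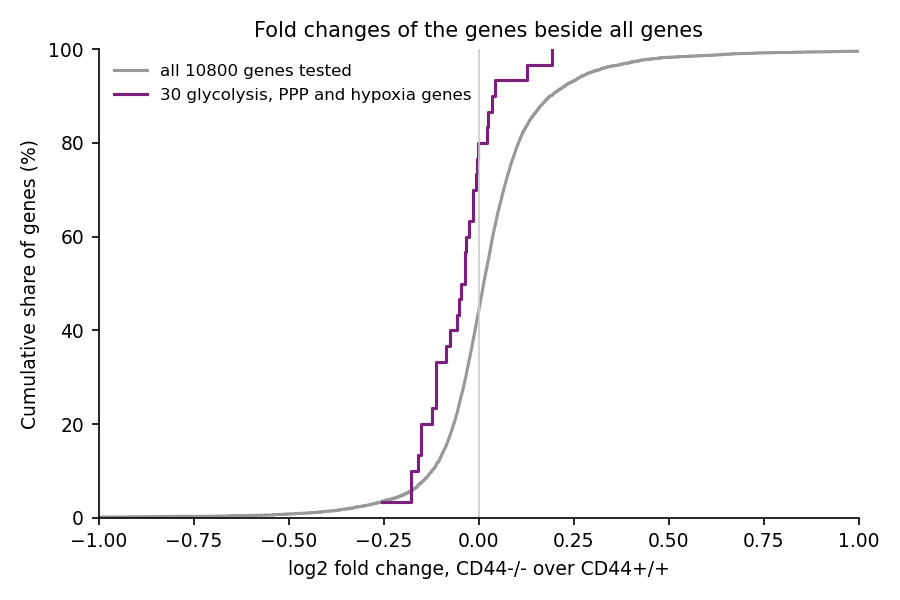
Cumulative share (percent) of genes against the log2 fold change of CD44-/- over CD44+/+ AMs, for the 30 genes and for all 10800 genes tested; the axis is limited to 1 either way. The curve of the 30 genes lies to the left around 0, with 24 of 30 genes below 0 beside 44.2% of all genes, and spans only -0.26 to 0.19.

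Other genes of the same pathways, counted as lists, gave no call either. The lists held 84 further genes, a few of them in more than 1 list, and 60 of the genes were tested, 31 with an estimate above 0 and 29 below, and a median log2 fold change of 0.00; none had an adjusted p under 0.05 in limma, and 6 had an unadjusted p under it, beside 7.69% of all genes. In glycolysis and glucose handling 18 genes were tested, with 8 estimates above 0 and 10 below. The lowest p there belonged to Galm, galactose mutarotase, at 13.3, 14.7 and 14.3 FPKM against 12, 11.7 and 12.5 FPKM (adjusted p 0.427), and to Tigar, which lowers fructose 2,6-bisphosphate, at 12.4, 13.6 and 12.4 FPKM against 11.6, 11.0 and 11.3 FPKM (adjusted p 0.567). The glucose transporter Slc2a1 was at 9.84 to 14.1 FPKM and the lactate exporter Slc16a3 at 25.7 to 31.3 FPKM. The tissue-restricted forms Gapdhs, Pgk2, Pgam2 and Ldhc were listed at 0 in all 6 samples, as was Tktl1.

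Of the 14 genes of pyruvate entry to the mitochondrion 11 had an estimate above 0, beside 55.8% of all genes, and 3 below. Pyruvate dehydrogenase, the enzyme that makes acetyl-CoA from pyruvate, is built from several subunits. Pdha1 was lower in every CD44-/- sample (46.0, 44.8 and 44.4 against 41.5, 39.2 and 43.0 FPKM, adjusted p 0.621), and Pdhx was higher in every CD44-/- sample (6.95, 7.27 and 6.78 against 8.14, 7.71 and 7.76 FPKM, adjusted p 0.645). In the remaining genes of the PPP 5 of 6 estimates were below 0, with no unadjusted p under 0.05. In oxygen sensing there were 4 above and 4 below.

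Of 17 further hypoxia targets tested 9 had an estimate above 0 and 8 below. Ndrg1, a stress-responsive gene, stood apart at 1.04, 1.07 and 0.707 FPKM in CD44+/+ AMs and 1.44, 1.97 and 2.25 FPKM in CD44-/- AMs, and its log2 fold change of 0.93 ± 0.22 (SE) had an adjusted p of 0.289 in limma. Wsb1, a ubiquitin ligase adaptor, was lower in every CD44-/- sample, at 56.4, 52.0 and 50.2 FPKM against 48.4, 47.1 and 44.1 FPKM, with an adjusted p of 0.499. The carbonic anhydrase Car9 was at 2.61 to 3.36 FPKM and the mitophagy receptor Bnip3l at 73.2 to 85.3 FPKM, with overlapping genotypes.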

How the data were processed

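The mRNA libraries of 3 CD44+/+ and 3 CD44-/- AM samples were sequenced by the authors on an Illumina sequencer as paired reads of 42 bases, aligned to mm10 with STAR, and the FPKM values per gene were deposited from Cufflinks. The settings of these tools are not given in the sources used here. FPKM carries no read number, so absolute depth is unknown. The lowest FPKM steps gave relative depths of 0.813 to 1.05. Each replicate is a separate pool of mice. Columns of the authors' own fold change and test were not used.

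Values were taken by the gene identifier column, 1 row without a value was left out, and genes averaging 0.5 FPKM or more were fitted as log2(FPKM + 0.1) with limma 3.58.1 (trend) in R 4.3.3, without a block, with Benjamini-Hochberg adjustment over 10800 genes. Fold changes are on the log2(FPKM + 0.1) scale, which understates those of low genes. Isozyme shares were compared by exact two-sided permutation. The method was tested on simulated data. Same-numbered samples deviated together (correlations 0.212, 0.132 and 0.211), so the numbers were taken as pairs in an alternative fit. Members and lists were chosen with earlier results of these data known. Every gene of the set is named, with values in each sample for those with the lowest p of a branch, those without overlap and the isozymes; further pathway genes were named at an unadjusted p under 0.05 or where a step needed them, and marker genes after their values were seen. Other alternatives were the pseudocount, filter, scaling, variance trend and leaving out each sample.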

Additional observations from a re-analysis of the deposited data

How the results depend on the processing

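None of the 30 genes had an adjusted p under 0.05 in limma under any of the 15 alternatives, and the lowest was 0.138 (Pgls without CD44+/+ replicate 1). The replicate block gave 4 genes with an unadjusted p under 0.05 in place of 1, beside 9.71% of all genes in place of 7.69%, and 9 genes called in all, and changed no other call. That count was 2 with no filter (4.50% of all genes), 3 with quantile normalization (8.34%), 2 without the variance trend (7.78%), and 1 to 4 when a sample was left out, with 4 without CD44+/+ replicate 1 (12.5%), 2 without CD44+/+ replicate 3 (6.69%) and 2 without CD44-/- replicate 3 (5.34%). The genes called in all, 12, numbered 6 to 36 with a sample left out, 36 without CD44+/+ replicate 1, 22 without CD44-/- replicate 1, 7 without CD44+/+ replicate 2 and 6 without CD44-/- replicate 2. The median log2 fold change of the 30 genes was -0.056 with median-ratio scaling, where that of all genes was -0.00, and -0.068 to -0.032 with a sample left out. Genes with an estimate above 0, 6 of 30, numbered 6 to 10 with a sample left out, 10 of them without CD44-/- replicate 2. The sign changed in at least 1 alternative in 14 of the 30 genes. With quantile normalization the log2 fold change was 0.0049 for Gapdh, 0.030 for Pkm and 0.019 for Ldha. With a sample left out it ran from -0.14 to 0.038 for Hk2, -0.20 to 0.067 for Pfkl, -0.58 to 0.022 for Pfkm, -0.066 to 0.0058 for Pfkp, -0.0044 to 0.048 for Pfkfb4, -0.049 to 0.028 for Tpi1, -0.028 to 0.0095 for Gapdh, -0.13 to 0.23 for Pgam1, -0.030 to 0.013 for Pkm, -0.044 to 0.023 for Ldha, -0.012 to 0.00995 for Rpia, -0.024 to 0.091 for Rpe, -0.11 to 0.014 for Egln1 and -0.11 to 0.035 for Pdk1. The cause was not tested. Ldhb, Egln3 and Vegfa fell under the filter on low values, and absolute depth is unknown.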
